A study of Mus musculus with 6 samples.

Results

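The matrix metalloproteases (MMPs), the ADAMTS proteases and their tissue inhibitors (TIMPs) were examined in gastrocnemius, the large muscle of the calf, of mice with an activating *Hras* mutation. The members were all genes whose symbol is Mmp, Adamts or Timp followed by a number, which gave 46 of the 23997 gene symbols listed. Of these, 28 had a mean of at least 0.5 FPKM over the 6 mice and were compared between genotypes, namely 10 of 23 MMPs, 14 of 19 ADAMTS proteases and 4 of 4 TIMPs. FPKM are fragment numbers scaled to transcript length and to the size of the library, so levels of different genes can be set side by side.

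The study used mRNA sequencing to compare *HrasG12V* mice, a model of Costello syndrome, with their wild-type (WT) littermates at 21 days of age, with 1 library per mouse and n = 3 per genotype. The *HrasG12V* mice, 2276, 2278 and 2279, carried the Caggs-Cre transgene and were *HrasG12V/+*. In them Cre, driven by the broadly active CAG promoter, had removed a floxed WT copy, so that the mutant allele was read from the promoter of *Hras* itself. The WT mice, 2277, 2280 and 2281, lacked Cre and were *Hras+/+* by genotype label, but their strain label lists *HrasflG12V/+*, the floxed allele without recombination. Both groups were untreated, and sex, litter and batch are not labelled. The values describe whole muscle, which also holds connective tissue, vessels, nerve and blood cells, and fewer cells of a type cannot be told apart from less RNA per cell. Throughout, values of single mice are given in the order 2277, 2280 and 2281 for WT and 2276, 2278 and 2279 for *HrasG12V*.

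MMPs and ADAMTS proteases are zinc enzymes that cut the extracellular matrix. MMPs cleave collagens, laminins and fibronectin, and the ADAMTS enzymes cleave large proteoglycans such as versican or trim procollagens before they form fibrils. TIMPs bind the active site of MMPs, and TIMP3 also inhibits several ADAMTS enzymes. In skeletal muscle these proteins shape the sheath around each fiber, the path of migrating myoblasts and the tendon junction, and several MMP genes are textbook targets of Ras signalling through AP-1, the dimer of Fos and Jun proteins.

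The libraries were not equal. Total FPKM was 413020 to 814013, highest in mouse 2276, and the depth of each library is not known here, since the methods give a nominal depth and FPKM keep no read counts. *Acta1* and *Myh4*, which every gastrocnemius expresses, were listed at 0 in all 6 mice, so a 0 can be a failed estimate. *Hras* itself was at 36.8, 36.0 and 51.8 FPKM in WT and 58.8, 28.9 and 16.0 FPKM in *HrasG12V* mice, overlapping values that sum both alleles and do not check the genotype. Markers of other cell types also moved with single mice. On the log2(FPKM + 0.1) scale, the median difference from the WT mean was -1.22, 0.09 and -1.60 for 7 fibroblast markers, -2.29, -0.98 and -0.89 for 6 tendon markers, 1.86, 5.60 and 4.37 for 6 neutrophil markers and 0.25, 5.18 and 5.202 for 8 lymphocyte markers in mice 2276, 2278 and 2279. By the unadjusted p, 0 of 7 fibroblast markers passed and 5 of 6 tendon markers fell, against 4.99% of all genes lower. In the 6 sets of 5 mice *Kera* passed in 6, *Tnmd* in 5, *Fmod* in 4, *Thbs4* in 2 and *Mkx* in 1. *Scx*, the other tendon marker, was at 4.70, 9.29 and 8.73 FPKM in WT and at 13.2, 5.03 and 6.45 FPKM in *HrasG12V* mice. Its log2 fold change was 0.06, and mouse 2276 was the highest of all 6. Most neutrophil and all lymphocyte markers entered the test only through the *HrasG12V* mice, so their calls are not counted. The fibroblast markers summed to 1998 to 4564 FPKM in WT and 808.5 to 3473 FPKM in *HrasG12V* mice, and the lymphocyte markers to 1.29 to 1.62 and 2.32 to 92.4 FPKM. Mouse 2276 thus lacked the lymphocyte signal of the other *HrasG12V* mice, and mouse 2278 lacked the low fibroblast signal.

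*Adamts9*, a versican-cleaving and aggrecan-cleaving protease, was lower in every *HrasG12V* mouse than in every WT mouse, 1.99-fold lower by the fitted mean on the log2(FPKM + 0.1) scale, and was the member with the smallest p. No other member passed an unadjusted p of 0.05, and none passed after adjustment. The most abundant members, *Timp2*, *Timp3*, *Timp4* and *Mmp2*, overlapped between genotypes. With limma on log2(FPKM + 0.1), 1 of 28 members (3.57%) had an unadjusted p below 0.05 with a lower level, against 4.99% of the 13359 genes tested, and 0 had a higher level, against 5.18%. In either direction the share over all genes was 10.2%. After Benjamini-Hochberg adjustment over all genes, 0 members and 0.0599% of all genes passed 0.05. These p-values measure the spread between 3 mice per genotype.

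Most members had a lower mean in *HrasG12V* mice without passing the test. Point estimates were below 0 for 20 of 28 (71.4%), compared to 53.4% of all genes, and their median log2 fold change was -0.18, compared to -0.03 for all genes. By family the median was -0.10 for MMPs, -0.18 for ADAMTS proteases and -0.49 for TIMPs. Every *HrasG12V* mouse was below every WT mouse for 3 members, *Adamts9*, *Adamts3* and *Mmp15* (10.7%), and 10.4% of all genes showed that order. The reverse order was found for 0 members, against 8.11% of all genes. The 95% interval of the log2 fold change lay within -1 and 1, a doubling or halving, for 12 members and passed that limit for 16, *Adamts9* among them. For those 16 a change of that size lay inside the interval.

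**Figure D1:**
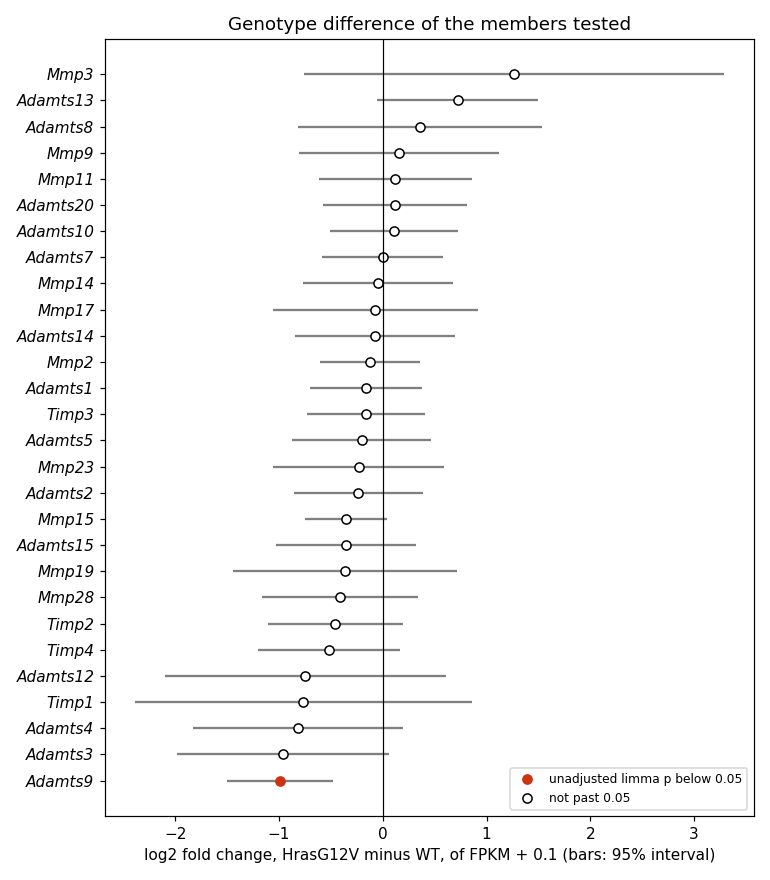
Log2 fold change of the 28 members, *HrasG12V* minus WT on the log2(FPKM + 0.1) scale, with the limma 95% interval as a bar, n = 3 mice per genotype. The bar of *Adamts9* (-1.502 to -0.48) is the one that does not cross 0, and that of *Mmp3* (-0.76 to 3.29) is the widest.

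Abundance was concentrated in few genes. The 6 members with a mean of at least 10 FPKM, *Timp2*, *Timp3*, *Mmp2*, *Timp4*, *Mmp14* and *Mmp15*, held 75.9% of the summed FPKM of the members. In WT muscle the means were 72.4 ± 14.7 FPKM (SD, n = 3) for *Timp2*, 64.3 ± 0.906 for *Timp3*, 50.4 ± 11.04 for *Timp4* and 49.2 ± 3.38 for *Mmp2*. Levels were thus highest for 3 of the inhibitors and for the gelatinase that degrades type IV collagen. *Mmp14* (19.3 ± 2.16) and *Mmp15* (16.2 ± 0.983), which sit in the cell membrane, came next. *Adamts2*, *Adamts1*, *Adamts10*, *Adamts9* and *Adamts20* followed, with WT means from 10.2 down to 5.998 FPKM, and the other 17 members had WT means from 4.64 FPKM (*Adamts12*) to 0.570 FPKM (*Mmp17*).

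**Figure D2:**
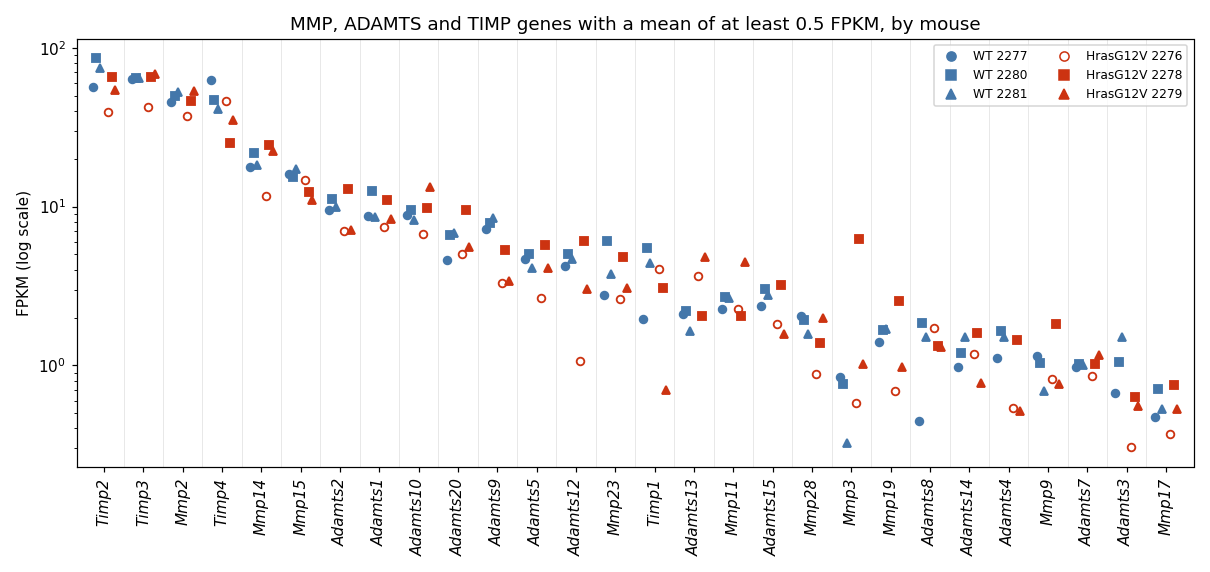
FPKM of the 28 members in each of the 6 mice on a log axis, ordered by their mean over all mice, with blue points for WT, red points for *HrasG12V* and an open circle for mouse 2276. *Timp2*, *Timp3*, *Mmp2* and *Timp4* lead, with means of 43.0 to 62.8 FPKM over the 6 mice, and the points of both genotypes overlap for 25 of the 28 members.

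The collagenases, which make the first cut in fibrillar collagen, had low values or were listed at 0. *Mmp1a* and *Mmp1b* were listed at 0 in all 6 mice, *Mmp13* had a mean of 0.0411 FPKM, and none of the 4 collagenases was compared. *Mmp8*, the collagenase stored in neutrophil granules, was at 0.0149, 0.0145 and 0 FPKM in WT and at 0.0621, 0.633 and 0.387 FPKM in *HrasG12V* mice. It was higher in each *HrasG12V* mouse, but its mean of 0.185 FPKM was below the limit for a test. The summed FPKM of 8 neutrophil markers was 3.22, 4.01 and 0.815 in WT and 21.2, 138 and 54.4 in *HrasG12V* mice, so *Mmp8* and these markers were both highest in mouse 2278 and lowest, among the *HrasG12V* mice, in mouse 2276. The part of such cells in the *Mmp8* values was not tested.

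Among stromelysins, which cut proteoglycans, fibronectin and laminin, *Mmp3* was at 0.840, 0.766 and 0.325 FPKM in WT and at 0.577, 6.26 and 1.02 FPKM in *HrasG12V* mice. Only mouse 2278 stood far above WT, and mouse 2276 lay inside the WT range. The log2 fold change of 1.27 (standard error, SE, 0.84, limma p of 0.180, adjusted p = 0.661) was the highest of the members and ranged from 0.31 without mouse 2278 to 1.93 without mouse 2276. *Mmp11*, a furin-activated stromelysin of stromal cells, was at 2.26 to 2.71 FPKM in WT and at 2.27, 2.06 and 4.51 FPKM in *HrasG12V* mice, a log2 fold change of 0.12 (SE 0.31, limma p of 0.704, adjusted p = 0.931). It overlaps *Chchd10* on the opposite strand, which was at 289 to 1178 FPKM, and whether the counting used strand is not stated. *Mmp10* was listed at 0 in all mice, and *Mmp7*, matrilysin, had 0.0573 FPKM in mouse 2278 and 0 in the other 5.

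*Mmp3* and the collagenases lie together. In the GENCODE vM21 annotation of GRCm38, 10 MMP genes, in the order *Mmp13*, *Mmp12*, *Mmp1b*, *Mmp3*, *Mmp1a*, *Mmp10*, *Mmp8*, *Mmp27*, *Mmp20* and *Mmp7*, fill chr9:7272514-7699585, a stretch of 427072 bases with no other protein-coding gene. Their summed FPKM was 1.44, 1.70 and 0.526 in WT and 0.920, 8.26 and 1.92 in *HrasG12V* mice. Without *Mmp3* it was 0.597, 0.930 and 0.201 in WT and 0.343, 2.00 and 0.898 in *HrasG12V* mice, with mouse 2278 again highest and mouse 2276 within the WT range. *Mmp27* was also highest there, with 1.09 FPKM in mouse 2278 against 0.1001 to 0.444 FPKM in the other 5. *Mmp12*, macrophage elastase, was at 0.280, 0.420 and 0 FPKM in WT and at 0.0934, 0.203 and 0.0665 FPKM in *HrasG12V* mice, so each *HrasG12V* mouse lay within the WT range.

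**Figure D3:**
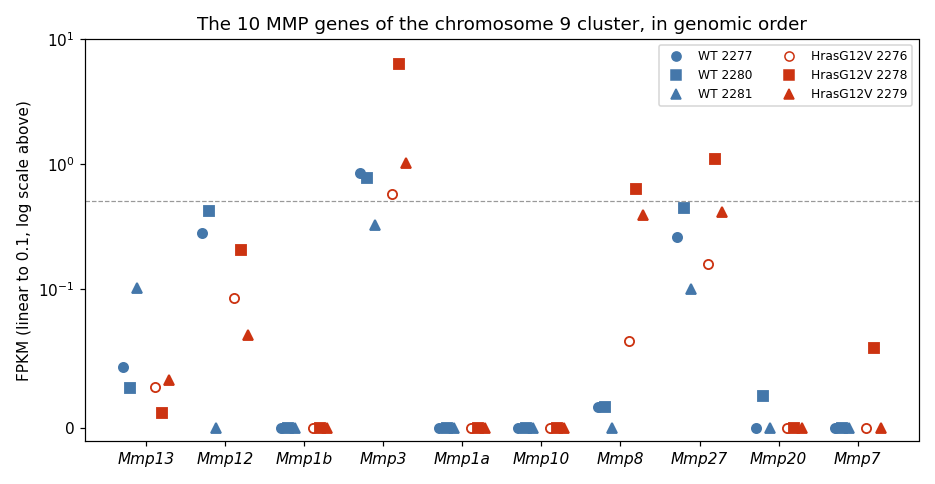
FPKM of the 10 MMP genes of the chromosome 9 cluster in each of the 6 mice, in genome order, on an axis that is linear up to 0.1 FPKM and logarithmic above it, with a dashed line at the 0.5 FPKM limit for a test. *Mmp3* alone has a mean above the line, and mouse 2278 at 6.26 FPKM is its highest point, while *Mmp1a*, *Mmp1b* and *Mmp10* sit at 0 in all mice.

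The start sites of the cluster and of the other members were searched for short motifs. RefSeq promoter sequences (GRCm38.p6) were found for 32 of the 46 members, with 35 start sites. The 250 bases before each start were searched for TGACTCA or TGAGTCA, which are the AP-1 motif on its 2 strands, for TATAAA on the strand of the gene, and for the GC box GGGCGG or CCGCCC on both strands. The AP-1 letters were found before 7 of 12 starts in the cluster (58.3%), in 7 of its 10 genes, and before 0 of 23 starts of the other members, compared to 4.46% of all 32851 RefSeq starts. TATAAA was found before 7 of 12 cluster starts and 2 of 23 others (7.59% of all), and the GC box before 0 of 12 and 16 of 23 (69.6%, and 32.7% of all). Median GC content was 40.2% before cluster starts and 63.6% before the others, compared to 52.4% over all starts. These are matches of letters and do not show binding.

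The 100 bases just before the start are shown for the cluster gene that could be compared (*Mmp3*, chr9:7445722-7445821), for a collagenase (*Mmp13*, chr9:7272414-7272513), for a stromelysin listed at 0 (*Mmp10*, chr9:7502242-7502341), for the matrilysin gene at the far end (*Mmp7*, chr9:7691990-7692089), for the cluster gene that was higher in each *HrasG12V* mouse (*Mmp8*, chr9:7558329-7558428), all on the plus strand, and for *Adamts9* (chr6:92943535-92943634, minus strand). Capitals mark the AP-1 letters and TATAAA in the cluster genes and the GC box in *Adamts9*.
Mmp3: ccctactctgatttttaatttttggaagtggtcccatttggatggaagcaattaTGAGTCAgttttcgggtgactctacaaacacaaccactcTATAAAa
Mmp13: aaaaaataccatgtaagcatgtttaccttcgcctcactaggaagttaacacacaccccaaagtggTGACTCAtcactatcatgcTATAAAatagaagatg
Mmp10: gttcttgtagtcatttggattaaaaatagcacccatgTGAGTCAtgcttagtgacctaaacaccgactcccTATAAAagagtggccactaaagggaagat
Mmp7: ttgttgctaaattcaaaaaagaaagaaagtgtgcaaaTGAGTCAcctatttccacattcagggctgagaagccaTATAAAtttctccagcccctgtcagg
Mmp8: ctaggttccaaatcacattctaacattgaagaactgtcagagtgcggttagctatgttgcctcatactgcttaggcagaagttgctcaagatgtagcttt
Adamts9: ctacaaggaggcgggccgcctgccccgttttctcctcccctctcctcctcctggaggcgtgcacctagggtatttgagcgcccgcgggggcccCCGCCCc
The AP-1 letters begin 46 bases before the start in *Mmp3*, 35 in *Mmp13* and 63 in both *Mmp10* and *Mmp7*. *Mmp8* has neither motif in its window, and *Mmp10* has both. A link between these motifs and the levels was not tested.

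The gelatinases digest denatured collagen and the type IV collagen of the basement membrane. *Mmp2* was at 45.7, 49.4 and 52.5 FPKM in WT and at 37.3, 46.4 and 53.3 FPKM in *HrasG12V* mice. Mouse 2276 was lowest and mouse 2279 highest of all 6, so the genotypes overlapped, with a log2 fold change of -0.12 (SE 0.20, 95% interval -0.60 to 0.36, limma p of 0.569, adjusted p = 0.885). *Mmp9*, the gelatinase of leukocytes and activated stroma, was at 1.14, 1.03 and 0.688 FPKM in WT and at 0.814, 1.83 and 0.763 FPKM in *HrasG12V* mice. Mouse 2278 was again the highest, and the log2 fold change was 0.15 (SE 0.40, limma p of 0.713, adjusted p = 0.933).

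The membrane-type MMPs act at the cell surface, where MMP14 also activates proMMP2 with the help of TIMP2. *Mmp14* was at 17.8, 21.7 and 18.2 FPKM in WT and at 11.7, 24.3 and 22.4 FPKM in *HrasG12V* mice. Mouse 2276 lay below and the other *HrasG12V* mice above the WT range, and the log2 fold change was -0.05 (SE 0.30, limma p of 0.875, adjusted p = 0.976). *Mmp15* was at 16.1, 15.3 and 17.2 FPKM in WT and at 14.7, 12.3 and 11.1 FPKM in *HrasG12V* mice. The groups did not overlap, but the gap between 15.3 and 14.7 FPKM was small and the log2 fold change of -0.35 did not pass the test (SE 0.17, limma p of 0.0733, adjusted p = 0.537). It had an unadjusted p of 0.00693 without mouse 2276, the *HrasG12V* mouse nearest to WT for this gene. *Mmp17* was at 0.469 to 0.713 FPKM in WT and 0.368 to 0.750 FPKM in *HrasG12V* mice, and *Mmp16*, *Mmp24* and *Mmp25* had means of 0.368, 0.0220 and 0.176 FPKM.

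Of the other MMPs, *Mmp23* was the most abundant, at 2.78, 6.10 and 3.75 FPKM in WT and at 2.63, 4.84 and 3.05 FPKM in *HrasG12V* mice (log2 fold change -0.23, SE 0.35, limma p of 0.524, adjusted p = 0.870). *Mmp28*, epilysin, was at 1.56 to 2.05 FPKM in WT and 0.886 to 2.00 FPKM in *HrasG12V* mice, and *Mmp19*, which cleaves basement membrane proteins, at 1.40 to 1.70 and 0.694 to 2.54 FPKM. Their log2 fold changes of -0.41 and -0.37 did not pass the test. *Mmp21* had a mean of 0.0344 FPKM, and *Mmp20*, the enamel protease, was above 0 in mouse 2280 alone.

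The proteoglycan-cleaving ADAMTS enzymes held the member with the smallest p. *Adamts9*, at chr6:92772699-92943492 on the minus strand of GRCm38, was at 7.24, 7.86 and 8.53 FPKM in WT and at 3.32, 5.31 and 3.39 FPKM in *HrasG12V* mice. The highest *HrasG12V* value, in mouse 2278, was below the lowest WT value, in mouse 2277. The log2 fold change was -0.99 (SE 0.21, 95% interval -1.502 to -0.48, limma p of 0.00286, adjusted p = 0.345), which passed the unadjusted and not the adjusted threshold. It was -0.87 without mouse 2276, -1.20 without mouse 2278 and -0.89 without mouse 2279, and the unadjusted p stayed at or below 0.0174 in the 6 sets of 5 mice. The study's supplement lists *Adamts9* among decreased genes of these same libraries, so this is not independent evidence of its direction. Its opposite strand holds *A730049H05Rik*, *Gm15737* and the antisense RNA *9530026P05Rik*, the last at 0.178 to 1.34 FPKM, and without a stated use of strand their reads cannot be told apart from its own. Mouse 2278, whose fibroblast markers had a median difference of 0.09 from the WT mean, also had the highest *Adamts9* of the *HrasG12V* mice. The part of stromal cells in the difference was not tested.

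**Figure D4:**
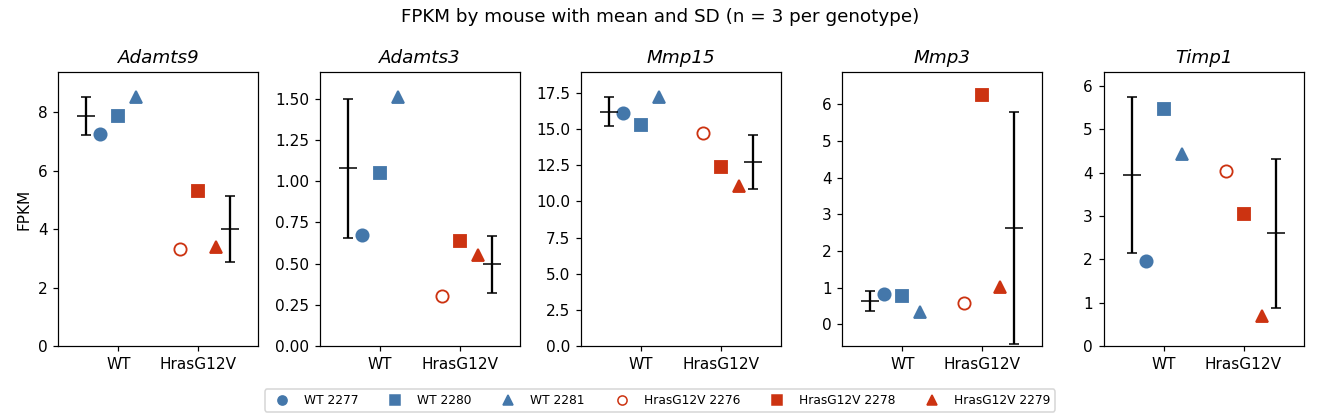
FPKM of *Adamts9*, *Adamts3*, *Mmp15*, *Mmp3* and *Timp1* in each mouse, with bars for the mean and SD of the 3 mice per genotype and an open circle for mouse 2276. The genotypes are apart for *Adamts9* (7.88 ± 0.642 in WT and 4.01 ± 1.13 in *HrasG12V*), *Adamts3* and *Mmp15*, and overlap for *Mmp3*, where mouse 2278 is far above the rest, and for *Timp1*.

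The other enzymes of this group overlapped between genotypes. *Adamts1*, the most abundant of them, was at 8.78, 12.6 and 8.59 FPKM in WT and at 7.46, 10.9 and 8.31 FPKM in *HrasG12V* mice (log2 fold change -0.16, SE 0.22, limma p of 0.503, adjusted p = 0.859). *Adamts4*, an aggrecanase, was at 1.11, 1.63 and 1.51 FPKM in WT and at 0.539, 1.45 and 0.519 FPKM in *HrasG12V* mice. Only mouse 2278 reached the WT range, and the log2 fold change of -0.82 had a limma p of 0.0969, which was 0.00460 without that mouse. *Adamts5*, the other main aggrecanase, had a log2 fold change of -0.20 and *Adamts15*, a versicanase of developing muscle, one of -0.36. *Adamts20* was at 4.58 to 6.81 FPKM in WT and 5.01 to 9.55 FPKM in *HrasG12V* mice. *Adamts8* was at 0.449 to 1.84 and 1.30 to 1.71 FPKM. Of the 7 genes in this group, 1 passed the unadjusted p, and 5 point estimates were below 0, against 4.99% and 53.4% of all genes.

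The procollagen N-proteinases remove the amino-terminal propeptide of fibrillar procollagens. *Adamts2*, the main one for type I collagen, was at 9.58, 11.2 and 9.90 FPKM in WT and at 7.04, 12.9 and 7.16 FPKM in *HrasG12V* mice. Mouse 2278 was highest and the other *HrasG12V* mice lowest, with a log2 fold change of -0.23 (SE 0.26, limma p of 0.402, adjusted p = 0.812). *Adamts3*, which acts on type II procollagen and on the lymphatic growth factor VEGFC, was at 0.671, 1.05 and 1.51 FPKM in WT and at 0.304, 0.634 and 0.552 FPKM in *HrasG12V* mice. All *HrasG12V* values were below WT, but the gap between 0.671 and 0.634 FPKM was narrow, and the log2 fold change of -0.96 (SE 0.43, limma p of 0.0609, adjusted p = 0.511) did not pass. *Adamts14* was at 0.982 to 1.502 FPKM in WT and 0.779 to 1.60 FPKM in *HrasG12V* mice.

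*Adamts7* and *Adamts12* cleave the cartilage oligomeric matrix protein, and *Adamts13* cleaves von Willebrand factor. *Adamts12*, the most abundant of them, was at 4.22, 5.03 and 4.68 FPKM in WT and at 1.06, 6.11 and 3.01 FPKM in *HrasG12V* mice, which lay on both sides of WT (log2 fold change -0.75, SE 0.56, limma p of 0.230, adjusted p = 0.705). The estimate was -1.32 without mouse 2278 and -0.11 without mouse 2276. *Adamts13* was at 2.10, 2.21 and 1.65 FPKM in WT and at 3.67, 2.05 and 4.84 FPKM in *HrasG12V* mice. Mice 2276 and 2279 were above and mouse 2278 within the WT range, and the log2 fold change of 0.72 did not pass (SE 0.32, limma p of 0.0630, adjusted p = 0.514) with all mice, while the p was 0.00549 without mouse 2278. *Adamts7* was at 0.978 to 1.02 FPKM in WT and 0.852 to 1.16 FPKM in *HrasG12V* mice. The genotype means of *Adamts7*, 1.002 and 1.009 FPKM, were the closest of the members on the log2 scale. *Adamts10*, which binds fibrillin, was at 8.89, 9.49 and 8.22 FPKM in WT and at 6.71, 9.82 and 13.3 FPKM in *HrasG12V* mice (log2 fold change 0.11, SE 0.26, limma p of 0.679, adjusted p = 0.924).

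All 4 TIMPs had point estimates below 0, where 53.4% of all genes did, and none passed the test. *Timp2*, which also takes part in the activation of proMMP2, was at 56.7, 86.0 and 74.5 FPKM in WT and at 39.4, 65.6 and 54.4 FPKM in *HrasG12V* mice, a log2 fold change of -0.46 (SE 0.27, limma p of 0.140, adjusted p = 0.624). *Timp4*, the TIMP of heart and skeletal muscle, was at 62.7, 47.2 and 41.3 FPKM in WT and at 46.2, 25.3 and 35.4 FPKM in *HrasG12V* mice (log2 fold change -0.52, SE 0.28, limma p of 0.114, adjusted p = 0.590). For *Timp2* and *Timp4* 2 *HrasG12V* mice lay below the WT range and the third within it. *Timp3*, which stays bound to the matrix, was at 63.2, 64.6 and 65.0 FPKM in WT and at 42.3, 65.3 and 68.3 FPKM in *HrasG12V* mice, a log2 fold change of -0.16 (SE 0.24, limma p of 0.513, adjusted p = 0.863). Here the low estimate came from mouse 2276, without which it was above 0 at 0.06.

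*Timp1*, the inducible member of the family, was at 1.955, 5.47 and 4.42 FPKM in WT and at 4.04, 3.06 and 0.703 FPKM in *HrasG12V* mice. Its log2 fold change of -0.77 (SE 0.68, limma p of 0.298, adjusted p = 0.742) was the lowest of the TIMPs and rested on mouse 2279, without which it was -0.04. *Timp1*, *Timp3* and *Timp4* lie on the opposite strand within the synapsin genes *Syn1*, *Syn3* and *Syn2*, of which *Syn2* was the highest at up to 2.97 FPKM, and *Timp2* overlaps *Cep295nl* on its own strand.

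Summed over the family, TIMP levels were 184.6, 203 and 185 FPKM in WT and 132, 159 and 159 FPKM in *HrasG12V* mice, so every *HrasG12V* mouse was below every WT mouse. Of all single genes tested, 10.4% showed that order. The MMP sum, at 91.8, 103 and 99.8 FPKM in WT and 72.8, 105.5 and 101 FPKM in *HrasG12V* mice, overlapped, and so did the ADAMTS sum, at 58.0 to 71.4 and 44.0 to 74.0 FPKM. The ratio of the TIMP sum to the summed proteases was 1.23, 1.17 and 1.13 in WT and 1.13, 0.888 and 1.01 in *HrasG12V* mice. Mouse 2276 was close to the lowest WT mouse in this ratio, and mouse 2278 was lowest. *Timp2*, *Timp3* and *Timp4* made up most of each sum, and *Timp1* 0.443% to 3.06% of it. These sums are descriptions without a test, and they are sums of RNA levels.

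Single mice held the extreme value of many members. Mouse 2276 had the lowest value of all 6 mice for 16 of 28 members (57.1%, compared to 29.2% of all genes) and was below the WT range for 19 (67.9%, compared to 38.0%). Mouse 2278 had the highest value for 11 (39.3%, compared to 16.6%) and was above the WT range for 14 (50%, compared to 31.7%). Mouse 2279 was below the WT range for 13 (46.4%, compared to 41.6%). The median difference of the members from the WT mean was -0.45, 0.15 and -0.25 on the log2 scale in mice 2276, 2278 and 2279. For the fibroblast markers it was -1.22, 0.09 and -1.60. Of these 7 markers, 4 lay above the WT range in mouse 2278 and 6 below it in mouse 2279. In mouse 2279 *Dcn* was within the WT range at 333 FPKM and *Pdgfra* just below it at 9.90 FPKM. The part of fibroblasts in the levels of the members was not tested.

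**Figure D5:**
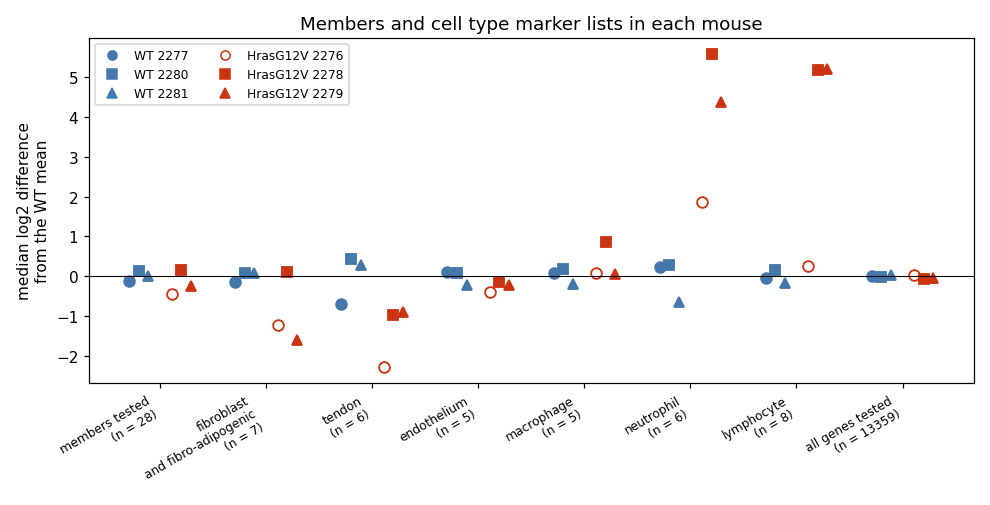
Median log2 difference from the WT mean in each mouse, for the 28 members and for lists of cell type markers on the log2(FPKM + 0.1) scale. For the members mouse 2276 is at -0.45 and mouse 2278 at 0.15, and the neutrophil and lymphocyte markers of mouse 2278 are at 5.60 and 5.18.

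The number of members past an unadjusted p of 0.05 therefore depended on the mice included. Without mouse 2278 it was 7 of 28 with a lower level, where 5.59% of all genes passed (*Adamts2*, *Adamts3*, *Adamts4*, *Adamts9*, *Adamts12*, *Adamts15* and *Mmp19*) and 1 with a higher level (*Adamts13*, 4.09% of all genes). Without mouse 2276 it was 3 of 28 with a lower level (*Adamts9*, *Mmp15* and *Timp4*), but 17.4% of all genes passed there. Without WT mouse 2277 it was 2 of 28 (*Adamts9* and *Adamts3*), against 2.33% of all genes. *Adamts9* was the member that passed in each of these sets. The spread within a genotype was also unequal, with a median coefficient of variation of 14.3% in WT and 35.0% in *HrasG12V* mice. It was larger in *HrasG12V* mice for 24 of the 28 members (85.7%), a share close to the 86.9% of all genes.

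The 18 members below 0.5 FPKM were left out of the comparison by that limit. *Mmp1a*, *Mmp1b* and *Mmp10* were listed at 0 throughout and 15 were above 0 in at least 1 mouse, with means up to 0.470 FPKM (*Adamts6*), 0.466 FPKM (*Adamts17*) and 0.411 FPKM (*Mmp27*). *Adamts16*, *Adamts18* and *Adamts19* had means of 0.191, 0.104 and 0.156 FPKM. *Adamts6*, which acts on microfibril proteins, was at 0.428 to 0.509 FPKM in WT and at 0.0706, 0.753 and 0.585 FPKM in *HrasG12V* mice, on both sides of WT.

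Genes that work with these enzymes were examined as 6 lists with 73 genes, of which 63 could be tested, 3 with an unadjusted p below 0.05 and a higher level (5.18% of all genes) and 7 with a lower level (4.99% of all genes). Among the inhibitors and partners other than TIMPs, 0 of 10 passed, with a median log2 fold change of -0.39. *Reck*, the membrane-anchored MMP inhibitor, was at -0.44 (limma p of 0.334), *Thbs2* lowest at -0.92 and *Sdc4* highest at 0.07. Among the activators and the plasminogen system, 1 of 8 rose and 1 fell by the unadjusted p. *Plaur*, the urokinase receptor, was at 0.560, 0.765 and 0.671 FPKM in WT and at 1.08, 1.87 and 1.79 FPKM in *HrasG12V* mice, with every *HrasG12V* mouse above WT (log2 fold change 1.11, limma p of 0.00904, adjusted p = 0.390). *Pcsk6*, a proprotein convertase, had a log2 fold change of -0.47 (limma p of 0.0411, adjusted p = 0.481), and *Pcsk5* was the lowest at -0.69 without passing. *Plau*, the urokinase that activates plasminogen, was at 11.99 to 14.8 FPKM in WT and 12.9 to 14.5 FPKM in *HrasG12V* mice.

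The matrix proteins that these enzymes cut had lower point estimates in all 13 genes tested, with a median log2 fold change of -0.71, and 4 passed the unadjusted p, where 53.4% of all genes had lower estimates and 4.99% passed with a lower level. *Comp*, the substrate of ADAMTS7 and ADAMTS12, was at 13.2, 40.0 and 17.8 FPKM in WT and at 3.09, 8.65 and 7.36 FPKM in *HrasG12V* mice, below WT in each (log2 fold change -1.84, limma p of 0.0112, adjusted p = 0.400). The paper already reports *Comp* as lower in these same libraries, so this is not independent evidence of its direction. *Col2a1* (-1.72, limma p of 0.0156), *Fmod*, fibromodulin of tendon (-1.46, p of 0.0158), and *Col4a1*, the basement membrane collagen (-0.71, p of 0.0234), also passed, with adjusted p of 0.432 to 0.454. *Vcan*, the substrate of *Adamts9*, was at 2.58, 3.54 and 3.06 FPKM in WT and at 2.57, 5.34 and 1.16 FPKM in *HrasG12V* mice, and *Eln* was the closest to 0 at -0.13. *Dcn*, *Col1a1*, *Col1a2*, *Col3a1*, *Fmod* and *Col2a1* of this list are also in the marker lists. *Comp*, *Fmod* and *Col2a1* are genes of tendon and cartilage, and the summed tendon markers were 275, 553 and 554 FPKM in WT and 98.6, 194 and 209 FPKM in *HrasG12V* mice. *Fmod* is itself part of these sums, with 152, 268 and 291 FPKM in WT and 46.2, 95.45 and 129 FPKM in *HrasG12V* mice. The part of fibroblasts, and of tendon left on the dissected muscle, in these levels was not tested.

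The ADAMTS-like proteins, which share the ancillary domains of ADAMTS enzymes and lack the protease, had lower point estimates in 7 of 7 genes (53.4% of all genes), with a median log2 fold change of -0.57. Of these, *Papln*, papilin, passed the unadjusted p (4.99% of all genes lower), at 4.38, 4.004 and 2.64 FPKM in WT and 1.95, 2.21 and 0.756 FPKM in *HrasG12V* mice (log2 fold change -1.21, limma p of 0.0239, adjusted p = 0.454). *Thsd4* was closest to 0 at -0.06. In the 6 sets of 5 mice, *Plaur* and *Comp* had an unadjusted p below 0.05 in each. *Pcsk6* missed it without mouse 2277, 2279, 2280 or 2281, *Papln* without 2277 or 2280, *Fmod* without 2280 or 2281, *Col2a1* without 2276, 2279 or 2280, and *Col4a1* without 2277, 2279 or 2280.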

How the data were processed

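Gene FPKM of the 6 libraries were used as deposited. Per the methods, the authors prepared stranded mRNA libraries, sequenced single-end reads, mapped them with TopHat and obtained FPKM with Cufflinks and Cuffnorm. The submitters' processing notes name bcl2fastq and GRCm38 (mm10). For tool versions and annotation the sources used here give nothing. Low FPKM showed no steps of whole reads (the fullest interval of ratios held 0.933% to 6.07% of genes), so no count test was run.

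Genes with a mean of at least 0.5 FPKM (13359) entered a limma fit (3.58.1, R 4.3.3) on log2(FPKM + 0.1), with a trend, no covariate, 2-sided p and Benjamini-Hochberg adjustment. The pseudocount understates changes of low genes. The script was tested on simulated data. Named were all members, with full statistics for those with an unadjusted p below 0.05, the most abundant of each role, the highest and lowest fold change, the TIMPs and the gelatinases, and of each related list those past that p and its extremes. Other genes with values were chosen after these were seen. The members and the role, related and marker lists were chosen with earlier results of these data known. Alternatives were pseudocounts of 1 and 0.01, no filter, a filter at 1 FPKM, equal totals, quantile normalization, no moderation, array weights and leaving out each mouse. Positions came from GENCODE vM21 and promoters from RefSeq. Figures used Python 3.11.15 and matplotlib 3.10.9. The values of 1 gene that overlaps a member are not reported here.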

Additional observations from a re-analysis of the deposited data

How the results depend on the processing

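The number of members with an unadjusted limma p below 0.05 was 1 lower and 0 higher. It was 2 lower with a pseudocount of 0.01 (*Adamts3* added, against 5.05% of all genes), 2 lower and 1 higher with no filter on 43 members (*Adamts3*, and *Mmp8* higher, against 4.43% and 4.91%), 3 lower with quantile normalization (*Adamts3* and *Mmp15* added, against 6.48%), and 3 lower and 1 higher with array weights (*Mmp15* and *Timp4*, and *Mmp3* higher, against 12.3% and 10.5%). Leaving out 1 mouse gave 1 to 7 lower and 0 to 1 higher, where 2.32% to 17.4% and 2.22% to 12.4% of all genes passed. No member passed an adjusted p of 0.05 under any of these settings, while the share of all genes that did was 0.0599% with all mice, 4.28% with array weights and 9.66% without mouse 2276. *Adamts9* kept its direction and its unadjusted p below 0.05 under all, with the largest p, 0.0437, for equal totals. The sign of small fold changes changed. With array weights the log2 fold change was 0.0301 for *Adamts14*, 0.0370 for *Adamts5*, 0.23 for *Mmp14*, 0.14 for *Mmp17*, 0.0442 for *Mmp19*, 0.0037 for *Mmp2* and 0.0207 for *Timp3*, and with quantile normalization it was -0.18 for *Adamts7*, 0.0347 for *Mmp14* and -0.0213 for *Mmp9*. Leaving out 1 mouse gave -0.32 to 0.0162 for *Adamts1*, -0.46 to 0.0768 for *Adamts5*, -0.0939 to 0.11 for *Adamts7*, -0.20 to 0.71 for *Adamts8*, -0.12 to 0.36 for *Adamts10*, -0.30 to 0.18 for *Adamts14*, -0.16 to 0.30 for *Adamts20*, -0.24 to 0.0174 for *Mmp2*, -0.22 to 0.36 for *Mmp9*, -0.22 to 0.33 for *Mmp11*, -0.24 to 0.28 for *Mmp14*, -0.29 to 0.14 for *Mmp17*, -0.49 to 0.0665 for *Mmp23* and -0.29 to 0.0554 for *Timp3*. The cause of these changes was not tested. No paired analysis was possible because the groups share no replicate numbers. Precision is known only from the spread between mice, since the read count of each library is not known here.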

Other observations

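Further lists written with the others bear on these enzymes. Among the other metzincins, the wider superfamily of zinc proteases that holds the ADAM sheddases and the procollagen C-proteinases, 0 of 12 genes tested rose and 1 fell by the unadjusted limma p, with a median log2 fold change of -0.17. Over all genes 5.18% were higher and 4.99% lower by that p. The gene that fell was *Adam9*, with 22.1, 19.8 and 22.7 FPKM in mice 2277, 2280 and 2281 (WT) and 12.8, 16.7 and 15.0 FPKM in mice 2276, 2278 and 2279 (*HrasG12V*), below WT in each (log2 fold change -0.54, limma p of 0.0159, adjusted p = 0.433). *Adam22* was the lowest of the list at -0.56 and *Adam8*, an ADAM of leukocytes, the highest at 0.58, and neither passed. *Bmp1*, a procollagen C-proteinase, was at 14.6 to 18.1 FPKM in WT and 11.3 to 17.1 FPKM in *HrasG12V* mice.

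Among the AP-1 and ETS factors, which bind MMP gene promoters, 2 of 13 genes tested rose and 0 fell by the unadjusted p (5.18% and 4.99% of all genes), with a median log2 fold change of 0.19. *Etv5*, an ETS factor downstream of Ras and MAPK signalling, was at 8.72, 8.28 and 9.002 FPKM in WT and at 33.9, 20.8 and 25.1 FPKM in *HrasG12V* mice (log2 fold change 1.58, SE 0.21, limma p of 0.000178, adjusted p = 0.198), above WT in each. *Junb* was at 7.97, 12.4 and 7.38 FPKM in WT and at 29.0, 19.5 and 11.7 FPKM in *HrasG12V* mice (log2 fold change 1.05, limma p of 0.0258, adjusted p = 0.456), with mouse 2279 within the WT range. *Fosl2* was the lowest of the list at -0.24. *Fos* was at 12.5 to 76.4 FPKM in WT and at 22.7 to 114 FPKM in *HrasG12V* mice, with both genotypes highest in the mice, 2280 and 2278, that also had the highest *Fosb*. In the 6 sets of 5 mice, *Etv5* had an unadjusted p below 0.05 in each, *Adam9* missed it without mouse 2277 or 2281, and *Junb* without mouse 2276, 2277, 2278 or 2281.

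The remaining marker lists describe what else the muscles held. Of the lymph node vessel and stroma markers, *Glycam1* was at 192 and 294 FPKM in mice 2278 and 2279 and below 1 FPKM in the other 4. *Ccl19* and *Ccl21a*, with WT means of 1.21 and 3.57 FPKM, also rose (limma p of 0.0217 and 0.0276, adjusted p = 0.446 and 0.465). Each passed in 2 of the 6 sets of 5 mice, and mouse 2276 lay within the WT range for both. By the unadjusted limma p, of 5 macrophage markers 1 rose (*C1qa*), of 4 adipocyte markers 1 rose (*Cfd*), of 5 endothelial markers 1 fell (*Cdh5*), and of 4 cartilage and bone markers 1 fell (*Col2a1*), where 5.18% of all genes were higher and 4.99% lower. In the 6 sets of 5 mice *Cdh5* passed in 6, *Cfd* in 4, *Col2a1* in 3 and *C1qa* in 1. None of 4 Schwann cell markers passed. The myofibre list could not be read, since *Acta1* and *Myh4* were listed at 0 in all mice, *Ckm* in 5 of 6, *Myh1* in mice 2277 and 2280 and *Tnnt3* in mouse 2276. *Mybpc2*, a myofibre gene that was measured in all 6 mice, was at 1780 to 2153 FPKM in WT and 1163 to 1905 FPKM in *HrasG12V* mice.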
